A study of Rattus norvegicus with 9 samples.

Results

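The genes described are the nuclear-encoded subunits of the mitochondrial respiratory chain and of ATP synthase in the rat hippocampus. They were chosen by symbol: the Ndufa, Ndufb, Ndufc, Ndufs and Ndufv genes of complex I (not the Ndufaf assembly factors), Sdha to Sdhd of complex II, the Uqcr genes and Cyc1 of complex III, the Cox4i, Cox5, Cox6, Cox7 and Cox8 genes of complex IV and the Atp5 genes of complex V. Such a name was borne by 87 of the 18733 genes listed, and the 82 with at least 100 counts summed over the 9 libraries are the members. They comprise 36 genes of complex I, 4 of complex II, 9 of complex III, 16 of complex IV and 17 of complex V. Ndufa4 and its paralog Ndufa4l2, named after complex I, were counted with complex IV, where the protein is now placed.

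Hippocampal RNA came from 9 male rats in 3 groups of 3, with 1 library per rat. Control rats received regular feeding. In both other groups the middle cerebral artery had been occluded (MCAO), a surgical model of ischaemic stroke, and rats were taken into the study when their alternation rate and cognitive index were both lower than 20% of the control mean, as the labels put the limit. These impaired rats were assigned at random either to regular feeding for 2 weeks (PSCI, post-stroke cognitive impairment) or to taVNS for 14 days (transcutaneous auricular vagus nerve stimulation), in which current is applied through the skin to the ear's vagal branch. The labels do not say whether controls were sham operated, which hemisphere was sampled or whether PSCI rats wore inactive electrodes, and they give no strain or age.

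Complexes I and II take electrons from NADH and succinate, complex III passes them to cytochrome c, and complex IV passes them to oxygen. Complexes I, III and IV pump protons across the inner mitochondrial membrane, and complex V, the ATP synthase, lets them flow back to make ATP. Neurons depend on this pathway for most of the ATP that ion pumping and synaptic transmission consume. Each complex except complex II also holds subunits encoded in the mitochondrial genome, which were not analysed here.

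Promoter sequences of 71 of the 82 genes were found in RefSeq (build GRCr8; the files are on mRatBN7.2), each with 250 bases before and 50 bases after the annotated start. They are shown for 3 of the genes that were lower in PSCI than in control: a core protein of complex III, a small membrane subunit of ATP synthase and an iron-sulfur subunit of complex I. Each is read 5′ to 3′ on the gene's own strand and capitals mark a matched motif. The Uqcrc2 window lies at chr1:184598990-184599289, plus strand, the Atp5mk window at chr1:255921998-255922297, minus strand, and the Ndufs7 window at chr7:10110449-10110748, minus strand.
Uqcrc2: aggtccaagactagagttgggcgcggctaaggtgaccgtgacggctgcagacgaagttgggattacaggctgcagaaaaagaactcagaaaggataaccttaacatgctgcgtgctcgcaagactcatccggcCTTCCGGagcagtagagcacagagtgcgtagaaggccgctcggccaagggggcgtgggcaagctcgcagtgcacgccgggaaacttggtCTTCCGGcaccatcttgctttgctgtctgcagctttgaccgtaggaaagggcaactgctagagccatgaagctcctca
Atp5mk: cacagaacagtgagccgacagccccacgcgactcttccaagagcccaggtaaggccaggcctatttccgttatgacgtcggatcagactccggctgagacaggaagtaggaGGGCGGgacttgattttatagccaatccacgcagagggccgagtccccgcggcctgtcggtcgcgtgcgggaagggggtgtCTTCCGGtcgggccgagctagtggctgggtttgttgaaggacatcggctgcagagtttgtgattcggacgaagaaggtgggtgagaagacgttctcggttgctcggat
Ndufs7: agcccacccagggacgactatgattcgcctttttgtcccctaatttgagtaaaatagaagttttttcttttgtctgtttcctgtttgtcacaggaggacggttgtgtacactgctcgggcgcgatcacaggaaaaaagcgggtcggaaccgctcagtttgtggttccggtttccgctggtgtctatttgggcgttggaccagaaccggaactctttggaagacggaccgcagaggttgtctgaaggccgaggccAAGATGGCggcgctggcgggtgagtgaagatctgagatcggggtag
In Uqcrc2 the capitals are 2 matches to the ETS core bound by GABP, CCGGAAG, on the opposite strand, whose first bases lie 117 and 28 bases before the start. In Atp5mk they are an SP1 box, GGGCGG, 139 bases before the start, and an ETS core on the opposite strand 58 bases before it. In Ndufs7 they are a YY1 core, AAGATGGC, that begins 5 bases after the start.

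Searched on both strands, the ETS core CCGGAAG was present in 21 of 71 member promoters (29.6%) and in 9.22% of all 27457 RefSeq promoters of that length. The YY1 core AAGATGGC was in 15 (21.1%, against 3.44% of all), the NRF1 motif GCGCATGC in 8 (11.3%, against 2.66%), the SP1 box GGGCGG in 29 (40.8%, against 34.9%) and the extended ERR site TCAAGGTCA in 2 (2.82%, against 0.412%). The last letters of the ETS core are the first of the YY1 core, so both can share bases, and the NRF1 motif can match on both strands at shifted positions. Of the 5 genes lower in PSCI with a promoter in the table, Uqcrc2 and Atp5mk held the ETS core, Ndufs7 the YY1 core, Ndufs3 and Atp5mk the SP1 box, and Ndufb10 none of the 5 motifs. A match describes letters only.

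Levels were compared between genes as RPKM, the authors' reads scaled for gene length and depth. The median member of complexes IV and V was at 456 and 451 RPKM, averaged over the 9 libraries, against 170 in complex I, 140 in complex III and 116 in complex II. The median over all 14840 genes tested was 10.9 RPKM, and 79 of the 82 members lay above it. The highest were Cox6a1 (832 RPKM) and Cox4i1 (831), subunits around the catalytic core of cytochrome oxidase. Atp5f1b, the catalytic beta subunit of ATP synthase, was at 767 RPKM and Atp5me, a small membrane subunit of its dimer interface, at 678. In complex III Uqcr11 (574) and Uqcr10 (406), small supernumerary subunits, led. In complex I the highest were the supernumerary subunits Ndufa13 (342) and Ndufb4 (337), and in complex II the iron-sulfur subunit Sdhb (130.0) and the flavoprotein Sdha (126). Supernumerary and stalk subunits of one enzyme thus spanned a wide range per length, as the plot of RPKM by complex shows.

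**Figure D1:**
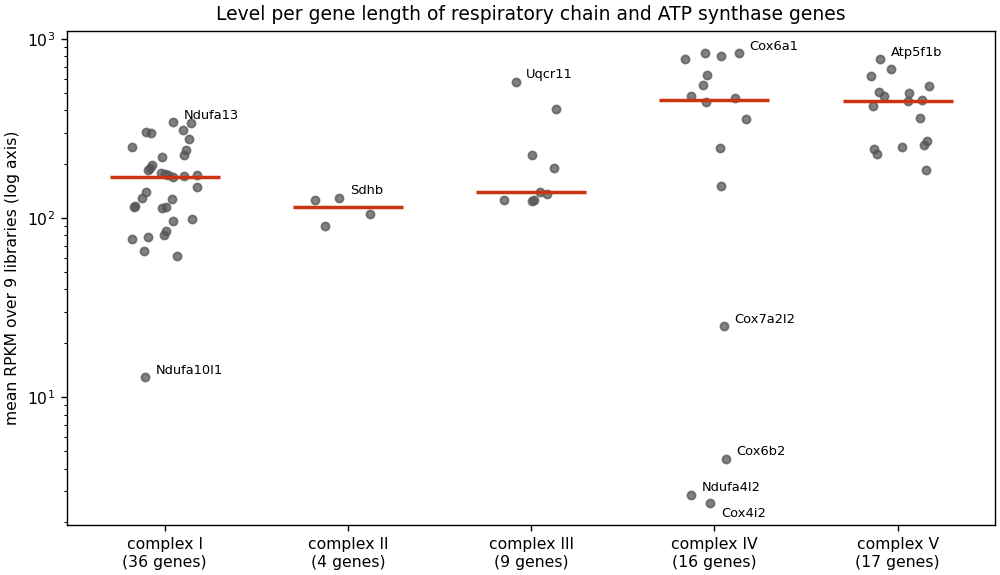
Mean RPKM over 9 libraries (log axis) of each of the 82 genes, by complex; each point is a gene and the bar is the median of its complex. Medians were 456 in complex IV and 451 in complex V against 116 to 170 in complexes I to III, and the genes far below their complex are tissue isoforms or near copies.

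In 3 isoform pairs of complex IV 1 gene held nearly all of the signal. Cox4i1, the widely expressed isoform of subunit 4, was at 831 RPKM, and Cox4i2, an isoform best known from lung, at 2.58. Cox6b1 was at 469 RPKM and Cox6b2, known from testis, at 4.53. Ndufa4 was at 357 RPKM and Ndufa4l2, known as a hypoxia-induced gene, at 2.86. Other relatives were less uneven: beside Cox7a2 at 551 RPKM, Cox7a2l was at 152 and Cox7a2l2 at 24.9. The isoforms of heart and skeletal muscle fell under the minimum count: Cox6a2 had 21 counts and Cox8b 3 counts over all 9 libraries, against 123 for Cox6b2, the member with the fewest counts. Cox7b2 (4 counts), Ndufa13-ps1 (16.1) and Atp5hl1 (20.1) also fell under it, and Cox7a1 was not analysed here.

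None of these minor isoforms passed the test between groups described next. Cox4i2 was at 1.79, 1.06 and 0.955 CPM in control, 1.16, 1.15 and 0.914 in PSCI and 1.26, 0.979 and 1.09 in taVNS. Ndufa4l2 was at 1.17, 2.41 and 1.91 CPM in control, 2.52, 1.78 and 1.89 in PSCI and 1.96, 2.10 and 1.57 in taVNS. Cox6b2 was at 1.10, 0.708 and 1.25 CPM in control, 1.84, 0.765 and 0.914 in PSCI and 0.631, 0.560 and 0.683 in taVNS. Cox6b2 lay lower in each taVNS library than in any PSCI or control library, at levels near 1 CPM, with a log2 difference of -0.90 ± 0.43 (SE) between taVNS and PSCI and an edgeR adjusted p of 0.267.

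Libraries held 13747389 to 15415694 counts, and the members took 0.839% to 1.10% of them. All 82 members passed the filter on low counts. Group differences were tested with edgeR's quasi-likelihood F test over 14840 genes in 1 fit of the 9 libraries, and a gene is called higher or lower at a Benjamini-Hochberg adjusted p under 0.05. CPM are counts scaled to library size and then by TMM (a trimmed mean of log ratios) between libraries, and differences are log2 fold changes with their standard error (SE). P-values measure the spread between the 3 libraries of a group, which the extraction text describes as separate animals. Markers of meninges and fibroblasts summed to 398 CPM in PSCI replicate 2 and 487 in taVNS replicate 3, against 132 to 178 in the other 7 libraries.

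PSCI against control addresses the differences that accompany impairment after stroke. In PSCI 7 of the 82 genes (8.54%) were lower than in control and 0 were higher, while 2.14% of all genes tested were called lower and 7.71% higher (9.85% in all). The 7 were Ndufa8, Ndufb9, Ndufb10, Ndufs3 and Ndufs7 of complex I, Uqcrc2 of complex III and Atp5mk of complex V, and they fell by 21.2% to 32.3%. The difference was small and in 1 direction across the set: the log2 fold change lay below 0 for 78 of 82 genes, with a median of -0.23, where 50.0% of all genes lay below 0 and their median was -0.00. At an unadjusted p under 0.05, 36 members were lower and 0 higher, against 9.11% and 16.2% of all genes. All 3 PSCI libraries lay below all 3 control libraries for 34 members (11.3% of all genes did so), and above them for 0 (16.2%).

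High-level genes as a whole lay lower in PSCI. Among the 2968 genes with the highest mean CPM (from 85.9 CPM up, 42 of them members) the median log2 fold change was -0.10, with 4.95% called lower and 68.6% below 0. Among the next 2968 genes, with 29 members, the median was -0.04. The members' median of -0.23 lay below both values.

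**Figure D2:**
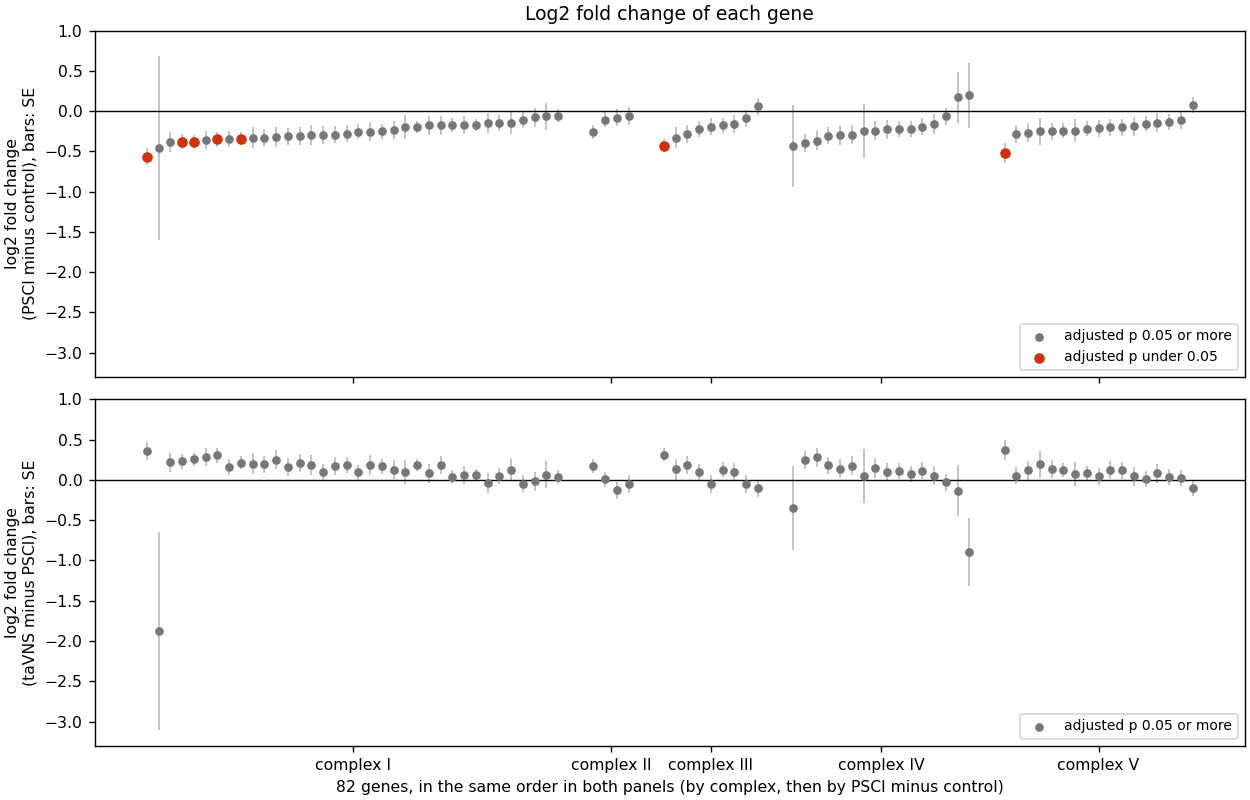
Log2 fold change with SE of each of the 82 genes, by complex and in the same order in both panels, for PSCI minus control (top) and taVNS minus PSCI (bottom); red points passed the test. The top panel has 78 points below 0 and 7 red ones, and the bottom panel has 68 points above 0 and no red one.

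Complex I held 5 of the 7 called genes, 13.9% of its 36 genes, where 2.14% of all genes tested were called lower. Each of the 36 had a log2 fold change below 0, from -0.56 to -0.06 with a median of -0.27. The 7 core subunits, which carry the flavin and the iron-sulfur clusters, had a median of -0.31, and Ndufs3 and Ndufs7 fell. For 6 of the 7 all PSCI libraries lay below all control libraries, as they did for 11.3% of all genes. Ndufs7, which holds the cluster that hands electrons to ubiquinone, was at 65.9, 54.0 and 58.3 CPM in control, 46.1, 47.9 and 45.8 in PSCI and 58.0, 55.7 and 59.4 in taVNS. The PSCI libraries were the lowest 3 of the 9, and the log2 fold change was -0.35 ± 0.091 (SE; edgeR adjusted p = 0.043). Ndufs3 was at 79.2, 67.1 and 74.8 CPM in control, 56.0, 56.8 and 57.3 in PSCI and 68.4, 66.1 and 68.6 in taVNS. Ndufs3, a core subunit of the arm that reaches into the matrix, fell by 23.1% (log2 fold change -0.38 ± 0.080, edgeR adjusted p = 0.0196), and its 3 PSCI libraries lay close together. Among other core subunits Ndufv2 had a log2 fold change of -0.31 (edgeR adjusted p = 0.125), Ndufv1, which binds NADH, of -0.25 (0.137), Ndufs8 of -0.33 (0.153) and Ndufs1 of -0.17 (0.208).

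Among the 29 supernumerary subunits of complex I, which surround the core and are needed for its assembly and stability, 3 fell (10.3%, against 2.14% of all genes) and the median was -0.26. Ndufb9 was at 144, 113 and 130.0 CPM in control, 84.3, 88.5 and 89.6 in PSCI and 115, 99.7 and 122 in taVNS. Ndufb9, a subunit of the membrane arm, fell furthest, by 32.3% (-0.56 ± 0.11, edgeR adjusted p = 0.0142), and every PSCI library lay below every other library. Ndufa8 was at 154, 131 and 134 CPM in control, 104, 108 and 109 in PSCI and 136, 119 and 122 in taVNS. Ndufa8, which faces the intermembrane space, fell by 23.2% (-0.38 ± 0.091, edgeR adjusted p = 0.0304), with control replicate 1 well above the other controls. Ndufb10 was at 89.2, 81.5 and 87.4 CPM in control, 65.3, 68.5 and 69.6 in PSCI and 83.3, 73.2 and 79.9 in taVNS. Ndufb10, also of the membrane arm, fell by 21.2% (-0.34 ± 0.079, edgeR adjusted p = 0.0273). Ndufs4, Ndufb3, Ndufa13 and Ndufb8 just missed the threshold, with log2 fold changes of -0.34, -0.38, -0.35 and -0.33 and edgeR adjusted p of 0.0571, 0.0798, 0.0842 and 0.0882.

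The most abundant complex I genes did not pass the test. Ndufa13 was at 85.2, 70.5 and 70.0 CPM in control, 56.2, 61.4 and 59.0 in PSCI and 74.3, 62.5 and 78.6 in taVNS. Ndufb4 was at 78.5, 56.2 and 69.5 CPM in control, 50.9, 56.7 and 58.7 in PSCI and 65.9, 59.2 and 64.6 in taVNS, with an overlap between control and PSCI and an edgeR adjusted p of 0.176. Ndufa10 and its near copy Ndufa10l1 were counted with fractions of reads split between them: Ndufa10l1 was at 30.6, 28.3 and 11.7 CPM in control, 14.1, 11.2 and 26.1 in PSCI and 14.0, 0 and 0 in taVNS. The sum of both genes was 176, 166 and 163 CPM in control, 139, 142 and 149.9 in PSCI and 154, 149 and 143 in taVNS. The taVNS libraries with Ndufa10l1 at 0 had lower sums than the other taVNS library, and every taVNS sum lay below every control sum. How reads were divided between the genes was not tested.

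In complex II no gene was called, and the 4 log2 fold changes ran from -0.26 to -0.06 with a median of -0.09. Complex II is also an enzyme of the tricarboxylic acid cycle, succinate dehydrogenase. Sdha was at 294, 269 and 259 CPM in control, 226, 242 and 218 in PSCI and 246, 264 and 262 in taVNS. All PSCI libraries of Sdha, the subunit that oxidises succinate, lay below the other 6, with a log2 fold change of -0.26 ± 0.087 that did not pass (edgeR adjusted p = 0.0985). Sdhb was at 109, 86.1 and 87.5 CPM in control, 82.3, 97.9 and 90.9 in PSCI and 90.0, 81.3 and 90.9 in taVNS, with overlapping groups and a log2 fold change of -0.06 (edgeR adjusted p = 0.805). The membrane anchors Sdhc and Sdhd had log2 fold changes of -0.08 and -0.11 and overlapping groups.

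In complex III 1 of 9 genes was called lower (2.14% of all genes tested were), 8 lay below 0 and the median was -0.19. Uqcrc2 was at 248, 234 and 254 CPM in control, 179, 192 and 175 in PSCI and 222, 218 and 237 in taVNS. Uqcrc2, a core protein that faces the matrix, had the smallest p of all 82 genes and fell by 25.8% (-0.43 ± 0.081, edgeR adjusted p = 0.0122), and no PSCI library overlapped any of the other 6. Its partner Uqcrc1 had a log2 fold change of -0.22 (edgeR adjusted p = 0.212). The subunits that carry the redox centres, Cyc1 (cytochrome c1) and Uqcrfs1 (the Rieske iron-sulfur protein), stood at -0.18 and -0.19 with edgeR adjusted p of 0.269 and 0.314. Uqcr11 was at 188, 135 and 146 CPM in control, 133, 112 and 128 in PSCI and 144, 135 and 129 in taVNS. Uqcr10 was at 85.9, 64.4 and 67.6 CPM in control, 67.1, 64.9 and 62.9 in PSCI and 71.3, 65.5 and 71.5 in taVNS. Control replicate 1 was the highest of the 9 libraries for both, and neither passed the test (edgeR adjusted p = 0.15 and 0.417). Uqcrq was the 1 gene of this complex above 0 (0.06 ± 0.11).

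In complex IV no gene was called, but 14 of 16 lay below 0 and the median was -0.23. In 7 of the 16 the PSCI libraries all lay below the control libraries, as they did for 11.3% of all genes. Cox4i1 was at 454, 348 and 368 CPM in control, 303, 303 and 343 in PSCI and 369, 338 and 337 in taVNS. Cox4i1, the subunit through which ATP regulates the enzyme, had a log2 fold change of -0.30 ± 0.12 (edgeR adjusted p = 0.15). Cox6a1 was at 287, 230.3 and 227 CPM in control, 195, 210.2 and 223 in PSCI and 249.6, 206 and 239.5 in taVNS, with a log2 fold change of -0.24 ± 0.12 (edgeR adjusted p = 0.249). Cox6c came nearest to the threshold (-0.40 ± 0.11, edgeR adjusted p = 0.0564), followed by Cox5b (-0.37, 0.0859). Ndufa4 was at 229, 173 and 201 CPM in control, 165, 159 and 165 in PSCI and 192, 174 and 188 in taVNS. For Ndufa4, the subunit once assigned to complex I, the PSCI libraries were the lowest 3 of the 9, with a log2 fold change of -0.30 ± 0.11 (edgeR adjusted p = 0.115). Cox8a was at 204, 169 and 186 CPM in control, 168, 149 and 163 in PSCI and 173, 155 and 176 in taVNS. Cox6b1 was at 162, 121 and 150.3 CPM in control, 122, 132 and 135 in PSCI and 137, 122 and 144 in taVNS. Cox7a2 was at 137, 111 and 122 CPM in control, 102, 112 and 103 in PSCI and 119.6, 107 and 116 in taVNS. Of these 3 genes only Cox8a had PSCI libraries that all lay below the controls, and their edgeR adjusted p were 0.196, 0.453 and 0.184. Ndufa4l2 (0.17 ± 0.32) and Cox6b2 (0.20 ± 0.41) lay above 0 by less than their SE.

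In complex V 1 of 17 genes was called lower (5.88%, against 2.14% of all genes tested), 16 lay below 0 and the median was -0.21. Atp5mk was at 34.5, 31.4 and 37.3 CPM in control, 25.0, 22.2 and 24.6 in PSCI and 34.0, 26.4 and 32.9 in taVNS. Atp5mk, a small protein that helps ATP synthase form dimers, fell by 30.5% (-0.52 ± 0.12, edgeR adjusted p = 0.0288), while taVNS replicate 2 lay close to the PSCI libraries. Atp5f1b was at 1296, 1152 and 1194 CPM in control, 970.1, 1167 and 1029 in PSCI and 1133, 1099.7 and 1212 in taVNS. Atp5f1b, the catalytic subunit, overlapped between control and PSCI by 1 library and had a log2 fold change of -0.20 ± 0.11 (edgeR adjusted p = 0.285). The 5 subunits of the F1 head had a median of -0.19, the 4 of the peripheral stalk -0.22 and the 3 genes for the proton-carrying c ring -0.20, among which Atp5mc2 lay above 0 (0.07 ± 0.10). Atp5me was at 33.7, 28.8 and 36.4 CPM in control, 25.8, 30.9 and 26.4 in PSCI and 33.9, 24.2 and 37.0 in taVNS. Atp5if1 was at 115, 89.5 and 108 CPM in control, 75.1, 96.0 and 92.8 in PSCI and 99.9, 75.8 and 102 in taVNS. Atp5if1, the inhibitor that stops the enzyme from consuming ATP when the membrane potential collapses, overlapped between all groups (-0.24 ± 0.15, edgeR adjusted p = 0.358), as did Atp5me (-0.25 ± 0.17, 0.393).

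**Figure D3:**
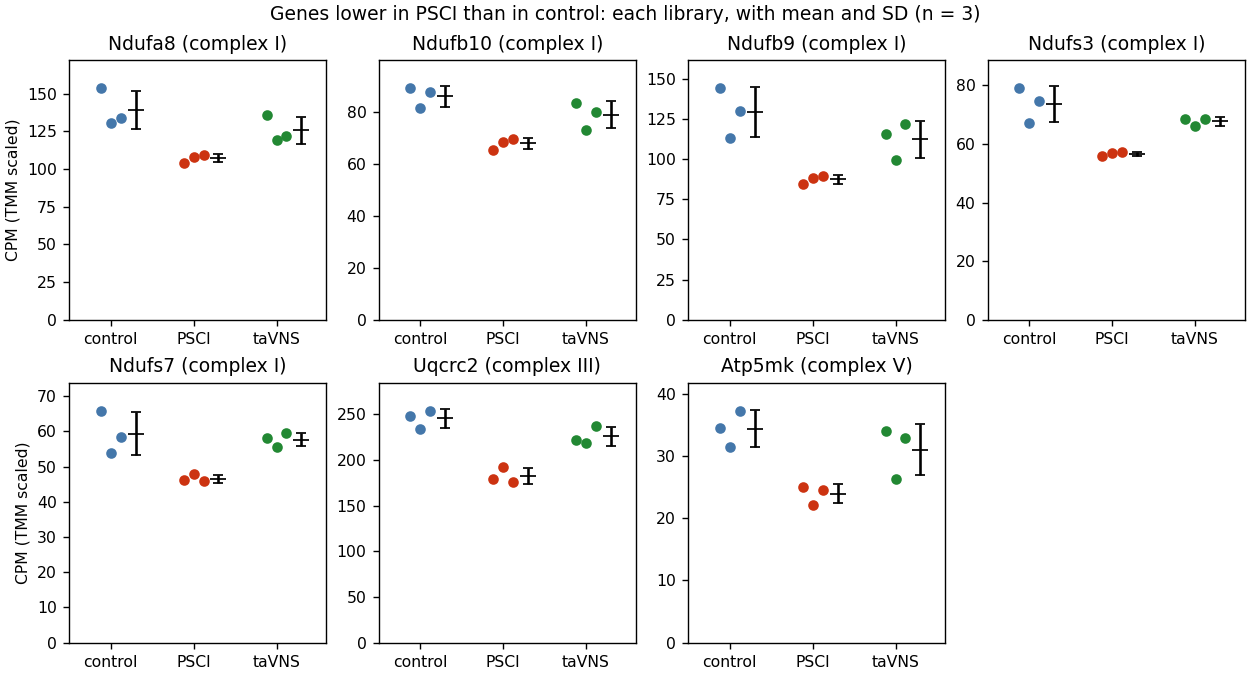
CPM of the 7 genes lower in PSCI than in control, in each of the 9 libraries (points), with mean and SD of 3 libraries; every axis starts at 0. All 3 PSCI points lie below all 3 control points in each of the 7 panels, whose genes were chosen as lower in these same libraries. Of all genes tested 11.3% are separated in this way.

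The 7 calls were not equally firm. Over 19 alternative analyses Ndufb9 lost its call in 1 (without control replicate 3, edgeR adjusted p = 0.0569) and Uqcrc2 in 2 (without control replicate 3 and without PSCI replicate 3, at most 0.0525). Ndufs3 lost its call in 5, Atp5mk in 10, Ndufb10 in 11, Ndufa8 in 12 and Ndufs7 in 15. Calls over all genes were 1461 in the main fit and changed as well. Without control replicate 3 none of the 82 genes was called (548 calls over all genes), and without PSCI replicate 3 only Ndufb9 was (785). Without control replicate 1 Ndufb9 and Uqcrc2 were called (922 over all genes), and without PSCI replicate 2 Ndufb9, Ndufs3 and Uqcrc2 were (1201). Counts of Uqcrc2 and Atp5mk, and of 13 other members, were not whole in some libraries, so part of their reads was divided between similar genes.

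Libraries of a group differed from each other across the whole set. Summed over the 82 genes, the level was 10340.3 ± 925 CPM in control (SD, n = 3; 9461 to 11306), 8840.1 ± 335 in PSCI (8464 to 9106) and 9535 ± 538 in taVNS (8934 to 9970.1). Control replicate 1 was the highest of the 9 libraries for 70 of the 82 genes, and control replicate 2 the lowest control for 71. taVNS replicate 2 was the lowest taVNS library for 74 genes. The median member lay 0.26, -0.03 and 0.12 (log2) from its mean over 9 libraries in control replicates 1 to 3, -0.16, -0.08 and -0.09 in PSCI, and 0.05, -0.12 and 0.06 in taVNS, while the median of all genes stayed between -0.02 and 0.04. Control replicate 2 and taVNS replicate 2 thus lay nearer to the PSCI libraries than the other rats of their groups did. As an unscaled share of all counts the members overlapped between control (0.931% to 1.10%) and PSCI (0.839% to 0.958%). As a share of summed RPKM they did not overlap, at 4.50% to 4.95% in control and 3.97% to 4.16% in PSCI.

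**Figure D4:**
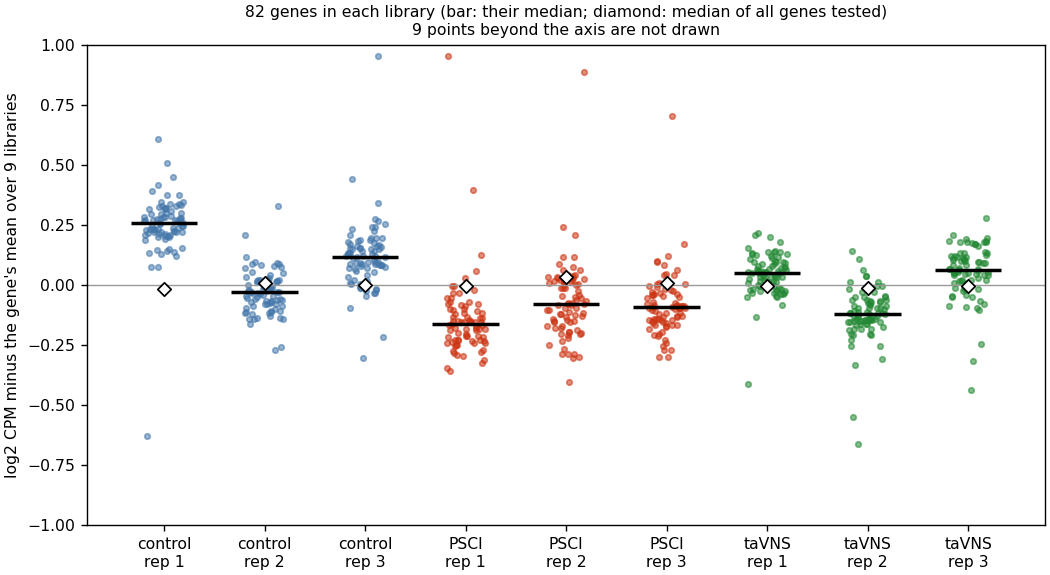
Log2 CPM of each of the 82 genes minus its own mean over 9 libraries, by library; bars are medians of the 82 genes, diamonds medians of all genes tested, and 9 points lie beyond the axis limits of 1. The bars run from 0.26 in control replicate 1 to -0.16 in PSCI replicate 1, and the diamonds stay near 0.

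taVNS against PSCI addresses the differences between impaired rats with and without stimulation. None of the 82 genes was called in either direction by edgeR, while 0.842% of all genes tested were called higher and 4.91% lower in taVNS (5.75% in all). DESeq2 called 4 members higher (Ndufb9, Ndufs3, Ndufs7 and Uqcrc2), among 1550 calls in either direction over 14828 genes. With DESeq2's size factors edgeR called Uqcrc2, among 835 calls over all genes, and limma-voom called 0 members, among 480. These genes were also called lower in PSCI against control, which uses the same PSCI libraries. At an unadjusted p under 0.05, 10 members were higher and 0 lower in taVNS, against 7.00% and 14.1% of all genes. The log2 fold change lay above 0 for 68 of 82 genes (49.7% of all genes), with a median of 0.11 that was 0.06 on the log2 RPKM scale. Most members are abundant, and abundant genes as a whole leaned the same way: of the 2968 genes with the highest mean CPM, which hold 42 members, 36.4% lay below 0 and the median was 0.07, and in the next 2968, which hold 29, the median was 0.02. All 3 taVNS libraries lay above all 3 PSCI libraries for 17 members (10.6% of all genes) and below them for 1, Cox6b2 (15.2%).

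By complex the median difference between taVNS and PSCI was 0.17 in complex I, -0.02 in complex II, 0.10 in complex III, 0.11 in complex IV and 0.08 in complex V. Of the 17 genes with higher libraries in taVNS, 11 were among the 36 genes of complex I. Complexes IV and V, with 16 and 17 genes, held 2 each. Complexes II and III, with 4 and 9 genes, held 1 each. Of all genes tested 10.6% were separated in this way. The same PSCI libraries enter PSCI against control and this comparison for every gene. The counts and medians of the set are therefore not independent of that comparison. For the 7 genes lower in PSCI than in control the differences are given only as values: 0.38 for Atp5mk (edgeR adjusted p = 0.118), 0.36 for Ndufb9 (0.0954), 0.31 for Uqcrc2 (0.0591), 0.31 for Ndufs7 (0.088), 0.26 for Ndufs3 (0.104), 0.23 for Ndufa8 (0.187) and 0.22 for Ndufb10 (0.157). In leading genes of complexes IV, V and II the differences were 0.14 ± 0.12 for Cox4i1, 0.15 ± 0.12 for Cox6a1, 0.12 ± 0.11 for Atp5f1b and -0.05 ± 0.11 for Sdhb.

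taVNS against control addresses what still differs from control after stimulation. None of the 14840 genes tested, members included, was called by edgeR (0% called), and 0 members reached an unadjusted p under 0.05 in either direction, against 235 lower and 322 higher among all genes. DESeq2 called 10 genes, none of them a member. The log2 fold change lay below 0 for 79 of 82 genes with a median of -0.11 (all genes 0.00), which was -0.04 without control replicate 1, -0.07 without taVNS replicate 2 and -0.19 without control replicate 2, and the medians of the 5 complexes ran from -0.12 to -0.10. All 3 taVNS libraries lay below all 3 controls for 4 members, Ndufa2, Ndufa5, Ndufs1 and Cox6b2 (5.4% of all genes), and above them for 0 (5.74%). For the 7 genes lower in PSCI the differences between taVNS and control ran from -0.20 for Ndufb9 to -0.04 for Ndufs7, with an edgeR adjusted p of 1 for each. The SE of a member had a median of 0.11, so a difference of this size could not be told from 0 with 3 rats a group.

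Other genes of mitochondrial energy metabolism were read from the same fit. Of 48 tested assembly factors, which build the complexes and insert their cofactors, 0 were called in PSCI against control, 38 lay below 0 and the median log2 fold change was -0.21. Of 20 genes of the tricarboxylic acid cycle and pyruvate entry 3 fell, where 2.14% of all genes tested were called lower, and the median was -0.21. Sucla2, a subunit of succinyl-CoA ligase, was at 178, 158 and 189 CPM in control, 132, 129 and 131 in PSCI and 158, 145 and 154 in taVNS (log2 fold change -0.42 ± 0.087, edgeR adjusted p = 0.0179). Pdha1, the catalytic subunit of pyruvate dehydrogenase, fell by 0.38 ± 0.084 on the log2 scale (edgeR adjusted p = 0.0221) and Idh3a, of isocitrate dehydrogenase, by 0.32 ± 0.085 (0.0467). All PSCI libraries of the 3 genes lay below the other 6. Of all genes tested 11.3% had all PSCI libraries below all control libraries.

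Of 25 genes for mitochondrial carriers, import and membrane dynamics 1 fell, where 2.14% of all genes tested were called lower. Their median was -0.13. The called gene was Ckmt1, the mitochondrial creatine kinase that passes the phosphate of ATP to creatine. It was at 260.0, 202 and 247 CPM in control, 192, 162 and 165 in PSCI and 223, 193 and 215 in taVNS (log2 fold change -0.45 ± 0.12, edgeR adjusted p = 0.047). None of 24 regulators of mitochondrial biogenesis, such as Ppargc1a, Nrf1, Gabpa and Tfam, was called, with a median of -0.06, and none of 74 mitochondrial ribosomal proteins, with a median of -0.09. Between taVNS and PSCI 0 genes of these 5 lists were called, and their medians were 0.10 for assembly factors, 0.10 for the tricarboxylic acid cycle, 0.03 for biogenesis regulators, 0.04 for carriers and dynamics and -0.00 for ribosomal proteins.

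**Figure D5:**
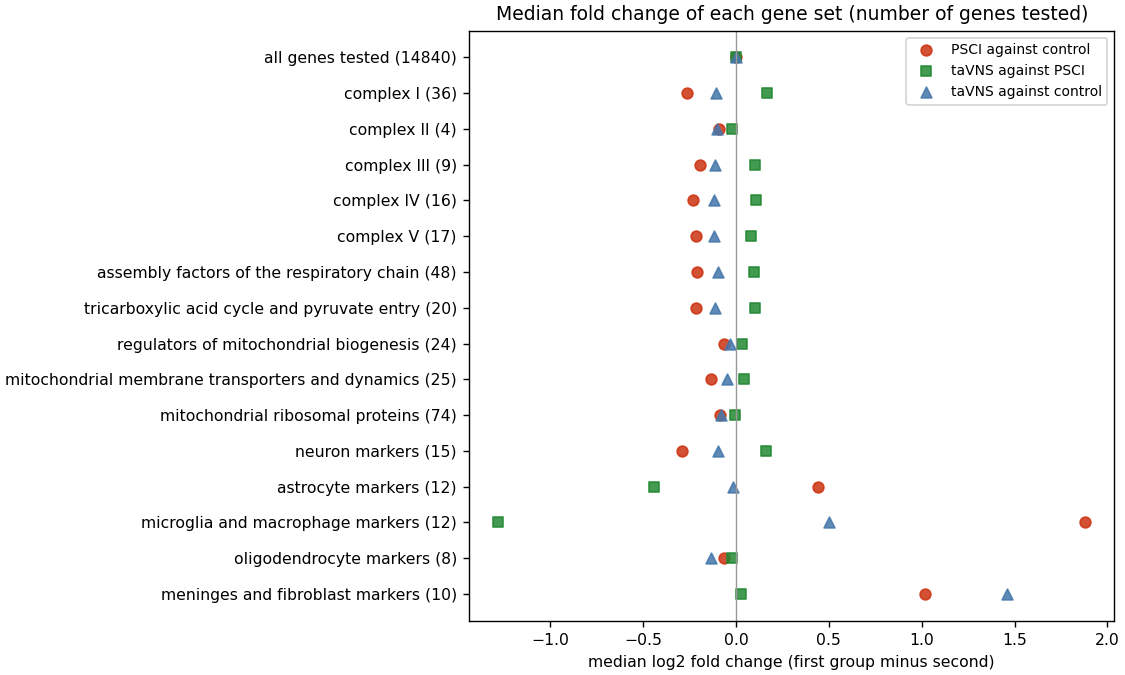
Median log2 fold change of all genes tested, the 5 complexes, 5 lists of other mitochondrial genes and 5 lists of cell type markers, for the 3 comparisons (symbols); the number of genes tested stands beside each name. For PSCI against control the complexes lie between -0.27 and -0.09, neuron markers at -0.29, astrocyte markers at 0.44 and microglia markers at 1.88.

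Cell type markers moved with the same groups. In bulk tissue fewer cells of a type and less RNA per cell cannot be told apart. Of 15 neuron markers 1, Nefm (a neurofilament protein), was called lower in PSCI and 0 higher, against 2.14% and 7.71% of all genes tested. Of the 15, 14 lay below 0 and the median log2 fold change was -0.29. Between taVNS and the same PSCI libraries 15 of 15 lay above 0, with a median of 0.16 and 0 called. Summed neuron markers were 15722 to 16616 CPM in control, 10065 to 14988 in PSCI and 13971 to 16831 in taVNS. PSCI replicate 2 had the lowest neuron sum of all libraries and a member sum of 9106 CPM, against 8464 and 8950 in PSCI replicates 1 and 3. This is 1 library, and a link between the 2 sums was not tested. Of 12 astrocyte markers 5 rose in PSCI against control, where 7.71% of all genes tested were called higher, and 4 lay below 0. The sum of all 12 was 4081 to 5698 CPM in control, 8864 to 12530 in PSCI and 4476 to 5393 in taVNS. Gfap, an astrocyte filament protein, was at 631 to 1196 CPM in control and 4095 to 7672 in PSCI, and without it the sums of control (3450.1 to 4503 CPM) and PSCI (4436 to 4858) overlapped. Of 12 microglia and macrophage markers 10 rose, against the same 7.71% of all genes tested. Their sum was 204 to 283 CPM in control, 568 to 910.5 in PSCI and 303 to 385 in taVNS. Between taVNS and PSCI 5 astrocyte and 7 microglia markers were lower and 1 microglia marker, Tmem119, was higher. Of all genes tested 4.91% were called lower and 0.842% higher in that comparison. Of 8 oligodendrocyte markers 0 were called, with sums of 9616 to 16915.0 CPM in control, 4974 to 13844 in PSCI and 8845 to 13793 in taVNS. Of 10 meningeal, 3 tested choroid plexus and 6 tested striated muscle markers 0 were called. In PSCI against control 8, 2 and 6 of them lay above 0, with median log2 fold changes of 1.02, 0.35 and 0.59. In taVNS against control 7 of the 10 meningeal markers lay above 0, with a median of 1.46. Muscle markers summed to 16.1 to 25.2 CPM over the 9 libraries. No marker of these lists was at 0 in all libraries, and the part of these shifts in the differences of the 82 genes was not tested. Leaving out PSCI replicate 2 and taVNS replicate 3, the libraries high in meningeal markers, left Ndufb9 and Uqcrc2 called lower in PSCI, with 1173 calls over all genes. These libraries were picked by their marker sums in the same data. In that fit the median log2 fold change of the members was -0.26. The genes no longer called stood at -0.40 for Ndufa8, -0.36 for Ndufb10, -0.39 for Ndufs3, -0.38 for Ndufs7 and -0.49 for Atp5mk. Why these calls were lost was not tested.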

How the data were processed

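The data are 1 table of gene counts and 1 of RPKM for each of 9 hippocampal poly(A) libraries, of 18733 genes. Per the labels' protocols the libraries were made with dUTP in the second strand. The deposited gene counts are the authors' expected counts (estimated counts), neither depth nor length scaled. The deposited RPKM values are scaled by the authors for gene length and depth. The build was mRatBN7.2 and the tools included RSEM 1.2.8 and HISAT2 2.0.4, per the submitters' processing notes; the annotation and any filter are not given in the sources used here. The extraction text names mice, while every label gives the rat.

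Counts were rounded, filtered with filterByExpr (14840 genes kept) and scaled by TMM. The test was edgeR's quasi-likelihood F test (edgeR 4.0.16, R 4.3.3), fitted once to the 9 libraries with group as the only term (6 residual degrees of freedom) and tested on simulated data. P-values were adjusted over all 14840 genes. A count of 0 allows up to 0.195 to 0.218 CPM (a floor of 3 counts, counting error only). Log2 CPM by library used a prior count of 2. All 82 members matched RefSeq by gene identifier.

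Named with values in all libraries are members called in any comparison and the 2 members per complex with the highest mean RPKM. So are the isoform pairs of complex IV and Atp5if1. Of the called genes of the other lists, Sucla2 and Ckmt1 are given with values in all libraries. Others are named without them or only counted. Ndufa10l1, Cox5b, Cox6c and others near the threshold were named after their values were seen. The lists cover assembly factors, the tricarboxylic acid cycle with pyruvate entry, biogenesis regulators, transporters and dynamics, mitochondrial ribosomal proteins, and markers of neurons, astrocytes, microglia, oligodendrocytes, meninges, choroid plexus and striated muscle. Members and lists were chosen with earlier results of these data known. Of 27 symbols of mitochondrially encoded subunits none was used here. Alternatives were DESeq2 1.42.0 and its size factors, limma 3.58.1 (voom on counts, and log2 RPKM with 0.1 or 1 added), no filter, only 2 groups in the fit, a replicate block and each library left out.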

Additional observations from a re-analysis of the deposited data

How the results depend on the processing

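Over 19 alternatives the median log2 fold change of the 82 genes kept its sign in all 3 comparisons: -0.30 to -0.16 for PSCI against control, 0.06 to 0.17 for taVNS against PSCI and -0.19 to -0.04 for taVNS against control, the last without control replicate 1. In PSCI against control 7 members were called lower, with 1461 of 14840 genes called in either direction. DESeq2 called 15 members, with 2257 of 14828 genes called. On log2(RPKM + 0.1) and log2(RPKM + 1) limma called 3 members each, with 1307 and 1248 genes called. The fit of only the 2 groups called 2 members, with 806 of 14647 genes called. The fit without both libraries high in meningeal markers called 2, with 1173 of 14852 genes called. Library totals without TMM, an alternative added after seeing the data, called 3 (Ndufb9, Ndufs3 and Uqcrc2), with 1388 genes called. Leaving out 1 library gave 0 to 7 members, with 548 to 2255 genes called. Fits with fewer libraries have fewer degrees of freedom, and fits that each left out 1 library differed from each other. The cause of the changes in calls was not tested. In taVNS against PSCI members called higher were 1 with DESeq2's size factors and 4 with DESeq2, with 835 and 1550 calls over all genes. Members called lower ran from 0 to 1 when 1 library was left out (Ndufa10l1, without taVNS replicate 1, with 172 calls over all genes).

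Over all genes PSCI against control gave 1461 calls, 548 to 2255 when 1 library was left out and 806 to 2257 in the other alternatives; taVNS against PSCI gave 854, 172 to 1707 and 250 to 1550. Counts scaled to library totals, without TMM, and RPKM gave log2 ratios of group means within 0.048 of each other for every member in PSCI against control, and within 0.144 in taVNS against PSCI. The same replicate number did not pair libraries: 2 of 9 same-number pairs had a correlation of deviations over 0.1 (-0.468 to 0.255), and 1 of 9 libraries correlated best with its own number. With the replicate block 5 members were called lower in PSCI (Ndufb9, Ndufs3, Ndufs4, Uqcrc2 and Atp5mk), 0 members were called in taVNS against PSCI, and the 2 comparisons had 1084 and 518 calls over all genes.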
